A study of Mus musculus with 2 samples.

Results

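The genes described here are 10 that respond to fibrate drugs in liver: Pdk4, Angptl4, Plin2, Acot1, Vnn1, Cyp4a10, Cyp4a14, Fgf21, Ucp2 and Ucp3. They were read in the mouse hypothalamus, where 21441 named genes had a measured probe. They were chosen by name for their known role in liver and matched through the gene symbol given for each spot or an older symbol. Plin2 was listed as Adfp and Acot1 as Cte1. The 10 genes had 16 of the 43379 spots that were not controls, and 7 of the 10 had a single probe. The study asked how bezafibrate, a fibrate that activates PPAR nuclear receptors, acts on transcripts of the hypothalamus. There were 4 pools of total RNA, each from 4 mice and each hybridized to 1 one-colour (Cy3) whole-genome oligonucleotide array: bezafibrate at ZT22, control at ZT22, bezafibrate at ZT10 and control at ZT10. ZT counts hours from lights on. The labels give the mice as 8 weeks old at the start, with a normal diet for 2 weeks, feed holding 0.5% bezafibrate for 2 weeks, and the normal diet again for 5 weeks. They do not settle at which stage of this schedule the brains were taken, and they name no strain. The tissue was a square block of brain around the hypothalamus.

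In liver, fatty acids and fibrates bind PPARα, which pairs with RXR on DNA and turns on genes that take up, burn and store fat and that make ketone bodies. The 10 genes span that programme: secreted signals (Angptl4, Fgf21), mitochondrial fuel control (Pdk4, Ucp2, Ucp3), fatty acid handling (Plin2, Acot1), fatty acid hydroxylation (Cyp4a10, Cyp4a14) and coenzyme A recycling (Vnn1). Several are also known to respond to fasting, and Pdk4 and Angptl4 to glucocorticoids.

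Signals are given on a common scale, on which the 75th percentile of each array is 1000 units. A probe that the scanner software did not mark as well above background is described as such, and no absence is read from it. The lowest signal so marked was 10.7 units on the bezafibrate ZT22 array, 11.9 on the control ZT22 array, 13.0 on the bezafibrate ZT10 array and 8.02 on the control ZT10 array. With 1 array in each group there was no spread between pools. Errors (±) are propagated from the error that the scanner software gave each spot and cover neither mice nor pools. Their median over genes was 0.20 in each comparison. No p-value is given for a pair of arrays.

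All 4 arrays lay on 1 slide, with the bezafibrate pools at positions 3 and 4 and the control pools at 1 and 2, so diet and place on the slide cannot be told apart. Between 68.7% and 74.6% of features were well above background, and no spot was saturated. All 15 hypothalamus markers listed were above background on at least 1 array, and 14 on all 4. Of 13 hepatocyte markers, 8 were above background on none (Alb, Apoa1, Apoa2, Fga, Ahsg, Cyp2e1, Cps1 and Fabp1). Markers of neighbouring tissue differed between pools. The summed signal of 9 choroid plexus markers, none of them below background on all arrays, was 9628 units in bezafibrate mice and 7297 in control mice at ZT22, and 5949 and 6223 at ZT10. Single markers differed more at ZT22 than that sum: 7 of 9 were 1.5-fold higher with bezafibrate (median log2 ratio 1.30), and Ttr had 1478 units in bezafibrate mice and 109 in control mice. All 10 myelin markers were lower with bezafibrate at ZT22 (summed signal 226986 against 261641 units), while at ZT10 5 of 10 were lower (248939 against 249749 units). All 9 meningeal and fibroblast markers were higher at ZT22 than at ZT10 in each diet, with medians of 0.62 in bezafibrate mice (5 past 1.5-fold) and 0.29 in control mice (2 past 1.5-fold). Their summed signal at ZT22 and ZT10 was 70652 and 47089 units in bezafibrate mice, and 70468 and 47998 in control mice. Whether tissue shares bear on the 10 genes was not tested. In such tissue blocks, fewer cells of a type and less RNA per cell cannot be told apart.

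Of the 10 genes, 7 were well above background on all 4 arrays, Vnn1 on 3, Cyp4a14 on 2 and Fgf21 on none. None of the genes measured on both arrays of a pair differed 1.5-fold between bezafibrate and control mice. At ZT22 this was 0 of 8 genes, where 3.18% of 16210 genes did so, and at ZT10 it was 0 of 7, where 2.45% of 16112 did. The median log2 ratio of bezafibrate over control was 0.00 at ZT22 (4 genes above 0, 4 below) and 0.08 at ZT10 (5 above, 2 below). The split at ZT10 turned in the authors' deposited table, where 2 of 7 genes were above 0 and 5 below (median -0.01). Each of the 7 stood lower in that table than here. Over all genes the medians were 0.01 and 0.01, with 52.2% of genes above 0 at ZT22 and 52.7% at ZT10. The log2 ratios of the fibrate response genes ran between -0.45 and 0.23 at ZT22 and between -0.17 and 0.15 at ZT10. The central 95% of all genes lay between -0.51 and 0.44 at ZT22 and between -0.44 and 0.36 at ZT10, so each of these single ratios lay inside that range.

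**Figure D1:**
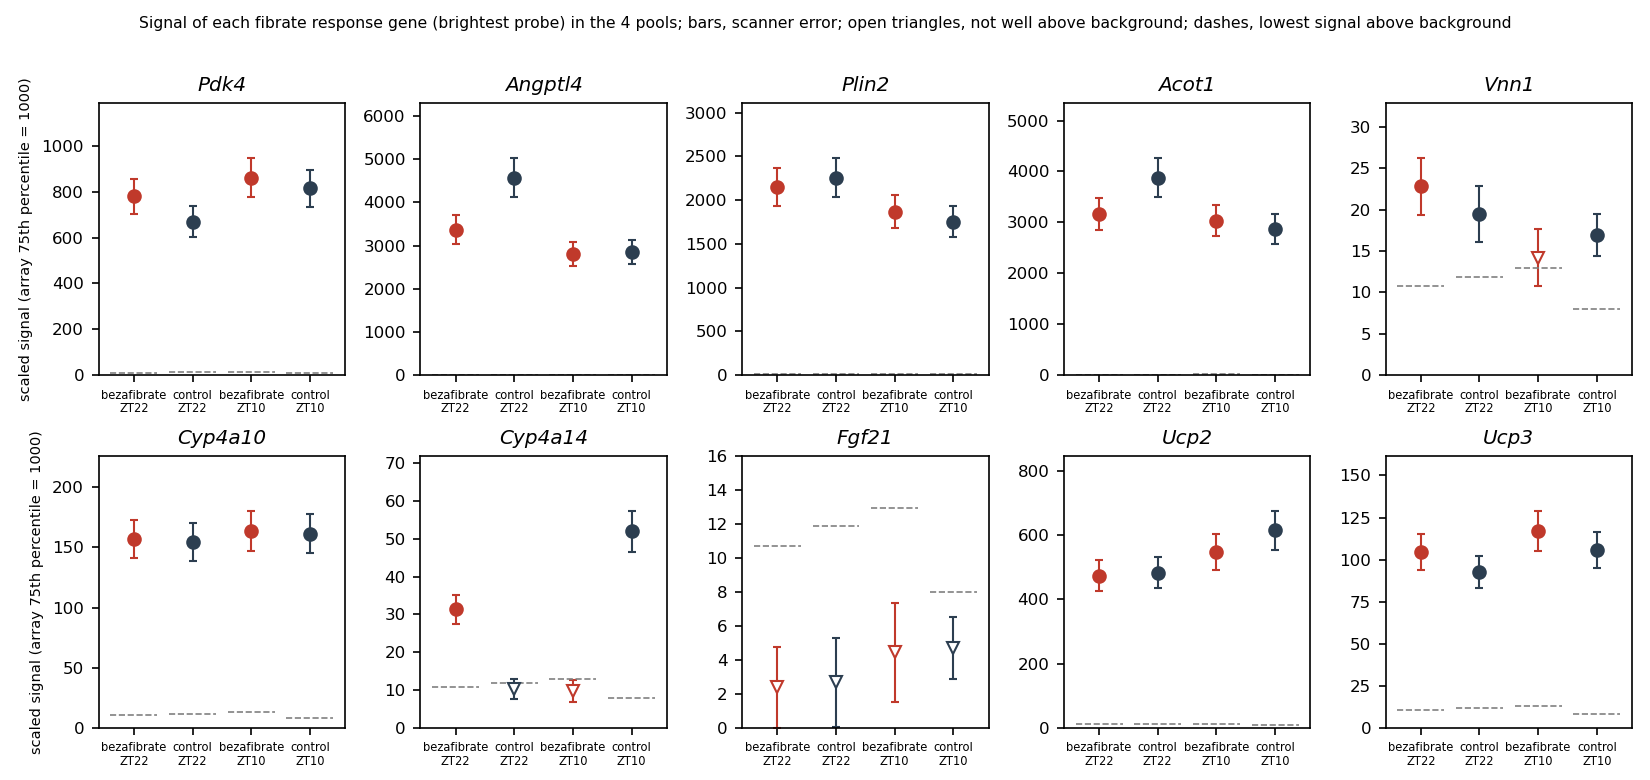
Signal of the brightest probe of each gene in the 4 pools, on a linear axis from 0 scaled to an array 75th percentile of 1000 units, with a separate axis for each gene. Points are single arrays (red, bezafibrate; dark, control), bars are scanner errors, open triangles are spots not well above background and dashes are the lowest signal above background on that array. Angptl4 stands out at 4574 units in control mice at ZT22, and Cyp4a14 is above the dashes in only the bezafibrate ZT22 and control ZT10 pools.

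Angptl4 encodes a secreted inhibitor of lipoprotein lipase, the enzyme that frees fatty acids from blood lipoproteins. It had 3359 units in bezafibrate mice and 4574 in control mice at ZT22, and 2810 in bezafibrate mice and 2851 in control mice at ZT10. The control pool at ZT22 was the highest, and both ZT10 pools lay close together. The log2 ratio of bezafibrate over control was -0.45 ± 0.20 at ZT22, a size reached by 5.61% of genes, and -0.02 ± 0.20 at ZT10. The ratio at ZT22 was lower than that at ZT10 by 0.42 on the log2 scale, with a scanner error of 0.29, and 9.18% of 15911 genes had as large a difference. ZT22 over ZT10 was 0.26 ± 0.20 in bezafibrate mice and 0.68 ± 0.20 in control mice. The control value, 1.60-fold, was the only one of the 10 genes past 1.5-fold with both arrays above background, in a comparison where 4.6% of 16405 genes passed in either direction. In the authors' deposited table of ratios, Angptl4 stood at 0.698 at ZT22 and 0.928 at ZT10. Angptl4 was also the only one of the 7 genes above background on all 4 arrays whose values spanned 1.5-fold or more (1.63-fold). Of 15910 other genes, those with the most similar log2 profile over the 4 arrays were Tafa4, Ccdc146 and Abhd2, with a largest departure of 0.05, 0.05 and 0.06 from the centred values of Angptl4. Their signals were far below that of Angptl4, at 46.4 to 73.5 units for Tafa4, 17.3 to 29.9 for Ccdc146 and 114 to 171 for Abhd2. With 4 arrays such likeness is a description only.

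Fgf21, a hormone that liver releases in fasting, was not well above background on any array with either of its probes. Its brighter probe gave 2.39 units in bezafibrate mice and 2.68 in control mice at ZT22, and 4.45 and 4.72 at ZT10, all under the limits. No ratio is given for it. The coreceptor through which FGF21 acts, β-klotho (Klb), was above background on all 4 arrays at a low signal. Klb had 29.3 units in bezafibrate mice and 48.3 in control mice at ZT22 (log2 ratio -0.72 ± 0.25), against 24.0 and 26.8 at ZT10 (-0.16 ± 0.29). Its partner receptor Fgfr1 had log2 ratios of -0.14 and -0.06 at the same times.

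Pdk4 encodes the kinase that switches off pyruvate dehydrogenase and so spares glucose when fat is burned. It had 779 units in bezafibrate mice and 669 in control mice at ZT22, and 862 in bezafibrate mice and 815 in control mice at ZT10. The bezafibrate pool was the higher of each pair, but at ZT10 the authors' deposited table gave a Pdk4 ratio of 0.996 (1.11 at ZT22). The log2 ratios were 0.22 ± 0.20 at ZT22 and 0.08 ± 0.20 at ZT10, and ratios as large occurred in 17.3% and 46.2% of genes. The signal was lower at ZT22 than at ZT10 in each diet, by a log2 ratio of -0.15 ± 0.20 in bezafibrate mice and -0.28 ± 0.20 in control mice. The related kinases Pdk1, Pdk2 and Pdk3 had log2 ratios of bezafibrate over control of 0.02, -0.01 and -0.25 at ZT22 and of -0.31, 0.00 and 0.23 at ZT10.

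Ucp2 and Ucp3 encode carriers of the inner mitochondrial membrane that are related to the heat-making uncoupling protein of brown fat, and they are next to each other on the chromosome. The brightest Ucp2 probe gave 474 units in bezafibrate mice and 483 in control mice at ZT22, and 548 in bezafibrate mice and 615 in control mice at ZT10. Both ZT22 pools lay below both ZT10 pools. The log2 ratios were -0.03 ± 0.20 and -0.17 ± 0.20 for bezafibrate over control at ZT22 and ZT10, and -0.21 ± 0.20 and -0.35 ± 0.20 for ZT22 over ZT10 in bezafibrate and control mice. Ucp2 had 2 other probes. One had 60.1 units in bezafibrate mice and 79.2 in control mice at ZT22 and 79.8 and 95.4 at ZT10, with log2 ratios of bezafibrate over control of -0.40 ± 0.22 and -0.26 ± 0.22. The third was not well above background on any array. The probes above background were thus all below 0, but the brightest lay within its scanner error at each time. At ZT22 they differed in size, at -0.03 for the brightest and -0.40 for the dimmer one.

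Ucp3 had 105 units in bezafibrate mice and 92.8 in control mice at ZT22, and 117 in bezafibrate mice and 106 in control mice at ZT10. The bezafibrate pool was again the higher of each pair, with log2 ratios of 0.17 ± 0.21 at ZT22 and 0.15 ± 0.21 at ZT10, and ratios as large occurred in 23.7% and 25.9% of genes. Ucp1, the brown fat protein itself, was not well above background on any array.

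Plin2 coats lipid droplets, and Acot1 splits fatty acyl coenzyme A in the cytosol. Plin2 had 2150 units in bezafibrate mice and 2257 in control mice at ZT22, and 1867 in bezafibrate mice and 1752 in control mice at ZT10. Both ZT22 pools lay above both ZT10 pools, with log2 ratios of ZT22 over ZT10 of 0.20 ± 0.20 in bezafibrate mice and 0.37 ± 0.20 in control mice. Bezafibrate over control was -0.07 ± 0.20 at ZT22 and 0.09 ± 0.20 at ZT10.

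Acot1 had 3169 units in bezafibrate mice and 3881 in control mice at ZT22, and 3029 in bezafibrate mice and 2871 in control mice at ZT10. The control pool at ZT22 was the highest, as for Angptl4, and the other 3 Acot1 values lay between 2871 and 3169 units. The log2 ratios were -0.29 ± 0.20 at ZT22 and 0.08 ± 0.20 at ZT10 for bezafibrate over control, and 0.07 ± 0.20 and 0.43 ± 0.20 for ZT22 over ZT10 in bezafibrate and control mice. The authors' deposited table gave 0.775 and 0.994 for bezafibrate over control at ZT22 and ZT10. Acot2 and Acot4 are its neighbours on the chromosome and close relatives, and whether the Acot1 probe also binds their RNA was not tested. Acot2, the mitochondrial form, had log2 ratios of 0.03 ± 0.21 and 0.02 ± 0.21, and Acot4 had -0.82 ± 0.26 and -0.34 ± 0.26.

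Cyp4a10 and Cyp4a14 are fatty acid ω-hydroxylases of the endoplasmic reticulum, and their genes adjoin each other in a cluster with Cyp4a31. The 4 Cyp4a10 probes disagreed in level. The one designed to X71478 gave 157 units in bezafibrate mice and 154 in control mice at ZT22, and 164 in bezafibrate mice and 161 in control mice at ZT10. Its log2 ratio of bezafibrate over control was 0.02 ± 0.21 at each time. The other 3 probes, of which 2 were designed to NM_010011, gave at most 3.62 units and were not well above background on any array. The value of Cyp4a10 therefore rests on 1 probe, and its target among the Cyp4a genes was not tested.

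Cyp4a14 had the largest differences of the 10 genes, each between a low signal above background and a spot that was not well above it. It had 31.4 units in bezafibrate mice and 10.4 in control mice at ZT22, and 9.81 in bezafibrate mice and 52.0 in control mice at ZT10. The bezafibrate ZT22 and control ZT10 pools were well above background, and the other 2 were not. Bounds put the lowest signal marked on the array in place of the dim spot. By bound, Cyp4a14 was at least 2.64-fold higher in bezafibrate than in control mice at ZT22, and at least 4.01-fold lower at ZT10. On the log2 scale these bounds were 1.45 at ZT22 and -1.88 at ZT10 under quantile normalization. Under scaling to the median of probes above background they were 1.40 and -2.00. With another background correction (normexp) the log2 ratios were smaller, at 0.54 and -0.80. The signs were thus kept, but the lower limits do not hold under normexp. When genes above background on a single array were counted through such bounds, 1 of 9 of the fibrate response genes differed 1.5-fold by diet at each time, Cyp4a14, where 5.52% of 16952 genes did so at ZT22 and 3.84% of 17287 at ZT10. Between times, 2 of 9 did so in bezafibrate mice, where 5.46% of 16752 genes did. These were Cyp4a14 and Vnn1, with Vnn1 counted by the own value of its dim spot. In control mice 2 of 9 did (Angptl4 and Cyp4a14), where 6.47% of 17398 did. By bound, Cyp4a14 was at least 2.42-fold higher at ZT22 than at ZT10 in bezafibrate mice and at least 4.38-fold lower in control mice. With normexp these log2 ratios were 0.58 and -0.75. The authors' deposited table gave Cyp4a14 a ratio of 2.87 at ZT22 and no value at ZT10. Cyp4a31 had 51.6 and 54.5 units at ZT22 in bezafibrate and control mice, and 44.3 and 53.2 at ZT10. The summed signal of 8 anterior pituitary markers was also highest in the pools that held Cyp4a14, with 6071 units in bezafibrate mice and 4586 in control mice at ZT22, and 3328 and 5496 at ZT10. Of these 8 markers, 5 and 7 were above background in bezafibrate and control mice at ZT22 and 7 and 7 at ZT10, and Pou1f1 was above background on none. Single markers did not all follow that sum. Prl had 2.70 units (not well above background) in bezafibrate mice and 58.6 in control mice at ZT22, and 16.9 and 376 at ZT10. Gh had 10.4 units (not well above background) and 63.3 at ZT22, and 15.1 and 199 at ZT10, so both hormones were lowest in the bezafibrate ZT22 pool, which held Cyp4a14. Tshb had 551 and 216 units at ZT22, and 181 and 224 at ZT10. Their part in the Cyp4a14 values was not tested.

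Vnn1, a pantetheinase that releases cysteamine and the precursor of coenzyme A, lay just above the limit. It had 22.8 units in bezafibrate mice and 19.5 in control mice at ZT22, and 14.2 in bezafibrate mice and 16.9 in control mice at ZT10, where the bezafibrate spot was not well above background. The log2 ratio of bezafibrate over control was 0.23 ± 0.33 at ZT22, and at ZT10 Vnn1 was 1.19-fold lower in bezafibrate mice. Vnn1 was 1.61-fold higher at ZT22 than at ZT10 in bezafibrate mice, while in control mice the log2 ratio was 0.20 ± 0.33. The bezafibrate ZT10 spot lay over the lowest signal marked on its array (13.0 units). The folds of 1.19 and 1.61 therefore use its own value, which had a scanner error of 24.3%, and are not lower limits. Its neighbour Vnn3 was not well above background on any array.

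**Figure D2:**
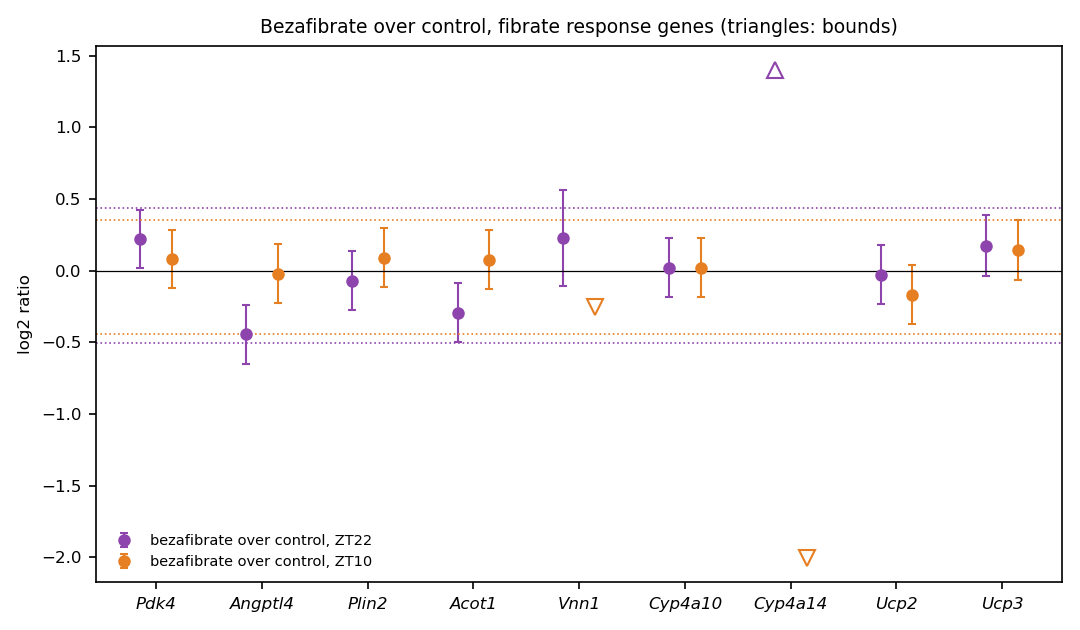
Log2 ratio of bezafibrate over control for each gene with a value (purple, ZT22; orange, ZT10). Bars are scanner errors, and dotted lines enclose the central 95% of all genes. Open triangles are bounds where 1 array was not well above background, or for Vnn1 the ratio from its dim spot. Only the Cyp4a14 bounds, at 1.40 and -2.00, lie outside the dotted lines.

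Between the times, the genes split by direction. Plin2, Angptl4 and Acot1 were higher at ZT22 in each diet, and Pdk4, Ucp2, Ucp3 and Cyp4a10 were lower. In bezafibrate mice, only Angptl4 and Ucp2 among these differed by more than their scanner error. In control mice, Ucp3 and Cyp4a10 did not. The direction of Cyp4a10 turned in bezafibrate mice with normexp correction (0.03) and in control mice with its probes averaged (0.13). That average takes in the Cyp4a10 probes that were not well above background on any array. The meningeal and fibroblast markers that were higher at ZT22 in both diets stand beside all these values, and their part was not tested. The log2 ratios of ZT22 over ZT10 ran between -0.21 and 0.26 in bezafibrate mice (7 genes, median -0.06) and between -0.35 and 0.68 in control mice (8 genes, median 0.07). Over all genes the medians were 0.04 and 0.03, with 59.2% and 58.1% of genes above 0. In bezafibrate mice 0 of 7 genes differed 1.5-fold, where 3.62% of 16006 genes did so, and in control mice 1 of 8 did, Angptl4. Each diet comparison and each time comparison shares arrays with the others, so they are not independent.

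**Figure D3:**
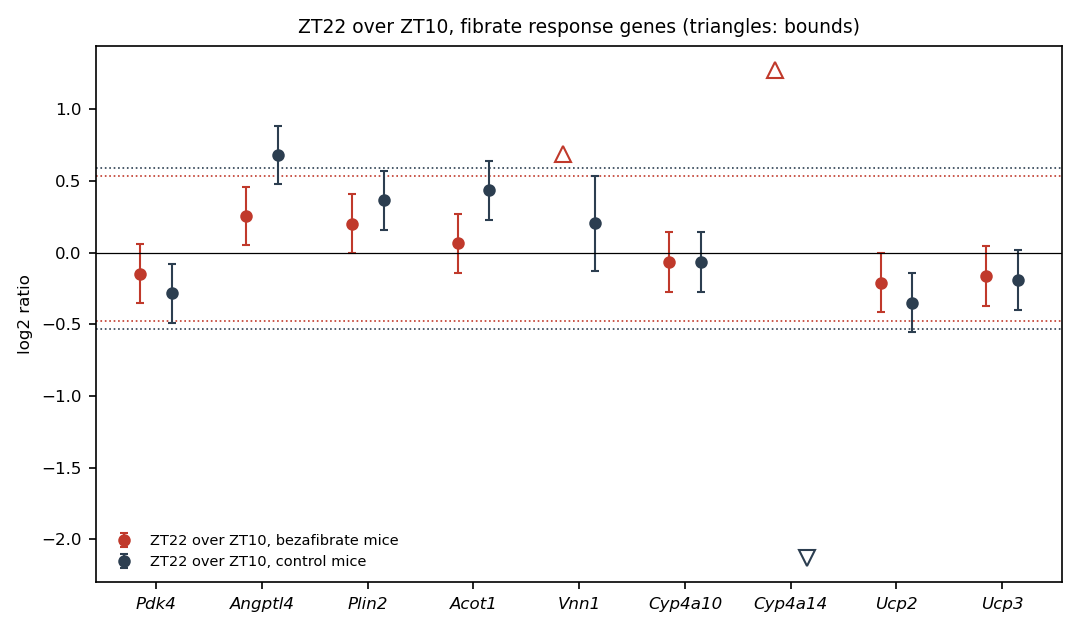
Log2 ratio of ZT22 over ZT10 for each gene with a value (red, bezafibrate mice; dark, control mice). Bars, triangles and dotted lines are as in the plot of bezafibrate over control. Angptl4 in control mice (0.68) lies above the dotted lines, as do the Vnn1 value and the Cyp4a14 bound in bezafibrate mice. The Cyp4a14 bound in control mice lies below them.

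The 4 arrays together allowed a fit of diet and time as additive effects with limma, which left 1 residual degree of freedom and assumed that diet acts alike at both times. For diet, 0 of 9 genes tested passed an adjusted p of 0.05 (limma, 0.872 to 0.993), and 0 of 9 had an unadjusted p under 0.05. Among all 17549 genes tested, 0% passed the adjusted threshold and 947 had an unadjusted p under 0.05. Ucp3 had the lowest unadjusted p among them, at a mean log2 ratio of bezafibrate over control of 0.16 (SE 0.05, limma adjusted p = 0.872). For time, 0 of 9 passed the adjusted threshold (limma, 0.441 to 0.911), again with 0% of all genes, while 1877 genes had an unadjusted p under 0.05. Ucp2 and Plin2 were among these, with mean log2 ratios of ZT22 over ZT10 of -0.28 (SE 0.07) and 0.28 (SE 0.07), each with a limma adjusted p of 0.441. Both diets showed the direction in each case. That is not separate support, since the difference between the diets is the residual of this fit. A p above the threshold in so small a design does not show that levels were alike.

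Promoter sequence from RefSeq (GRCm38.p6, 250 bases before the transcript start to 50 after it) was at hand for 6 of the 10 genes: Pdk4, Plin2, Acot1, Fgf21, Ucp2 and Ucp3. It was searched on both strands for AGGTCA, the hexamer that PPAR and RXR each contact, for its spaced repeat AGGTCANAGGTCA, and for CACGTG, the E-box of the clock activators. These motifs were found in 16.3%, 0.0396% and 7.15% of 32851 promoters of the same 300 bases. The 3 promoters with a match (Ucp3, Plin2 and Fgf21) are shown in lower case, with matches on either strand in capitals. They are shown for the match alone and not for the signals of their genes.
Ucp3 promoter, chr7:100472741-100473040, plus strand: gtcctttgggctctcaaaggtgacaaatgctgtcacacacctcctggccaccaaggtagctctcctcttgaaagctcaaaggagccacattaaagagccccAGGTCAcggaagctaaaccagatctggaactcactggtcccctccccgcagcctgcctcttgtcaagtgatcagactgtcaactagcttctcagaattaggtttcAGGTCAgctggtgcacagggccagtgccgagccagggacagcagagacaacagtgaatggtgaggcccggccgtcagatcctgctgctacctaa
Plin2 promoter, chr4:86670010-86670309, minus strand: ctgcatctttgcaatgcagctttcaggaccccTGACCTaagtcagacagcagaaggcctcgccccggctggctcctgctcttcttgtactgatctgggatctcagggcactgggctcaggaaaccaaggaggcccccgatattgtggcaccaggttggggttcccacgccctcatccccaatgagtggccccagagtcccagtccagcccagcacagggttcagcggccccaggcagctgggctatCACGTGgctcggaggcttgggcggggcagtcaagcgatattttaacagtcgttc
Fgf21 promoter, chr7:45615441-45615740, minus strand: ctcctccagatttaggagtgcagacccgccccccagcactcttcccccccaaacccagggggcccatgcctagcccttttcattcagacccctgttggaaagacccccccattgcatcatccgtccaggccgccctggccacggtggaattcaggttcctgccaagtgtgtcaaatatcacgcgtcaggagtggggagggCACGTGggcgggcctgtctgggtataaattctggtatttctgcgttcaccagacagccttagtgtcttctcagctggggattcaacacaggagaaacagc
Ucp3 held AGGTCA at 149 and 44 bases before the start. Plin2 held it once on the opposite strand (TGACCT), 218 bases before the start, and an E-box 4 bases before the start. Fgf21 held an E-box 50 bases before the start. None of the 6 held the spaced repeat, and Pdk4, Acot1 and Ucp2 held none of these letters in this window. A match is a run of letters and not a shown binding site, and regulatory sites outside the window were not searched.

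Other PPARα target genes were read beside the 10. Of 26 targets of fatty acid oxidation, all above background on all 4 arrays, 0 were 1.5-fold higher and 0 were 1.5-fold lower with bezafibrate at either time. Their median log2 ratio was 0.01 at ZT22 (15 above 0, 11 below) and 0.02 at ZT10 (15 above, 11 below). Among them, Cpt1a, the entry step of mitochondrial fat burning, stood at 0.01 at ZT22 and 0.01 at ZT10. The muscle form Cpt1b was at 0.45 ± 0.21 at ZT10 and -0.10 ± 0.21 at ZT22. Of 30 other liver targets, 25 were above background on all 4 arrays and 5 on none. Again 0 of 25 differed 1.5-fold at either time, with medians of -0.02 at ZT22 and -0.04 at ZT10. Of all genes, 3.18% differed 1.5-fold at ZT22 and 2.45% at ZT10, so no result about these lists is read from the counts. Cpt1b was named after its values were seen.

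The receptor Ppara was at -0.03 ± 0.07 at ZT22 and 0.01 ± 0.07 at ZT10, with 189 units in bezafibrate mice and 192 in control mice at ZT22 and 213 and 212 at ZT10. Of 15 receptors and partners measured at each time, 1 was 1.5-fold lower at ZT22 (Klb) and 0 at ZT10, and 0 were 1.5-fold higher. Among near relatives of the 10 genes, 2 of 29 were 1.5-fold lower with bezafibrate at ZT22 (Acot4 and Fgf15, with Fgf15 at -0.63 ± 0.29) and 1 of 27 at ZT10 (Plin1, a droplet coat protein of fat cells, at -0.68 ± 0.23), and 0 were 1.5-fold higher. Acot4, Fgf15 and Plin1 had between 25.1 and 63.6 units in all pools. Of all genes, 3.18% at ZT22 and 2.45% at ZT10 differed 1.5-fold in either direction. No result about these lists is read from counts so small.

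**Figure D4:**
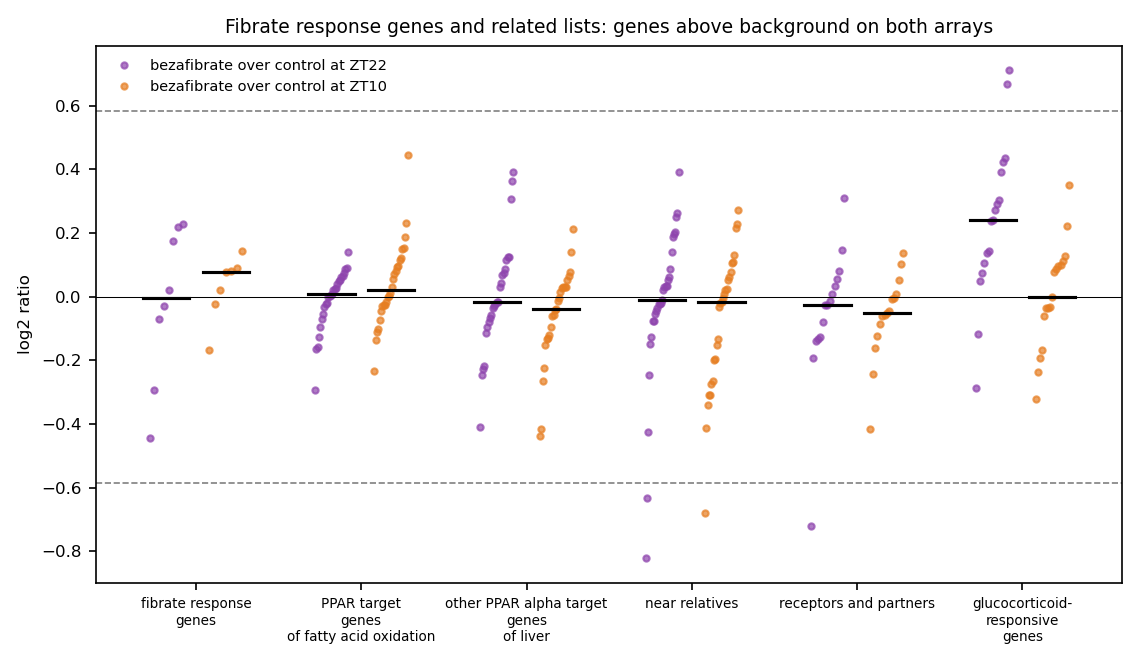
Log2 ratio of bezafibrate over control for the fibrate response genes and 5 related gene lists (purple, ZT22; orange, ZT10). Points are genes above background on both arrays, black bars are medians and dashed lines mark 1.5-fold. The medians lie between -0.05 and 0.08 except for the glucocorticoid-responsive genes at ZT22, at 0.24.

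Pdk4 and Angptl4 also respond to glucocorticoids, and a list of such genes was read beside them. Of 17 glucocorticoid-responsive genes, 15 were above 0 for bezafibrate over control at ZT22 (median 0.24) and 8 at ZT10 (median 0.00). Of all genes, 52.2% and 52.7% were above 0 at these times. The metallothionein Mt2 (0.71 ± 0.20) and the kinase Sgk1 (0.67 ± 0.20) were 1.5-fold higher at ZT22. In control mice, 12 of 17 were lower at ZT22 than at ZT10 (median -0.43), and in bezafibrate mice 12 of 17 (median -0.10). Pdk4 had the sign of this list's median at ZT22 and between times, and Angptl4 had the opposite sign at ZT22 and between times. For diet at ZT10, where the list's median was 0.00, Pdk4 was at 0.08 and Angptl4 at -0.02. The comparisons share arrays, so these signs are not independent. Neither gene is in the list, and its part in the Pdk4 and Angptl4 values was not tested.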

How the data were processed

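Per the file headers, the authors read the 4 arrays with Feature Extraction 9.5.1.1. Its processed signal, as deposited, is a background-subtracted intensity with an error and quality marks, not normalized between arrays. The authors' value table holds, per the labels, a ratio of bezafibrate to control for spots called present. It was an alternative here, and its direction was that of the array files (r across spots of 0.995 at ZT22 and 0.996 at ZT10). The log2 offsets from the array files, 0.10 and -0.14, are against signals before scaling. Against the scaled ratios, the table was lower at each time for every fibrate response gene measured on both arrays. Pdk4, for example, had log2 ratios of 0.15 there and 0.22 here at ZT22, and -0.01 and 0.08 at ZT10. Its other processing is not given in the sources used here.

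Signals were log2-transformed and the 75th percentile of each array subtracted. Spots marked as outliers, 73 to 142 on an array, were dropped and repeat spots averaged. The brightest probe on average stood for its gene. Names came from accessions, symbols or older symbols in the RefSeq table of GRCm38.p6, used for names, neighbours and promoters only. For a gene dim on 1 array a bound is given, in which its dim signal is replaced by the higher of its own value and the lowest signal well above background. Where its own value is the higher, as for Vnn1, the fold is not a lower limit. The call was 1.5-fold. Diet and time were fitted additively with limma 3.58.1 in R 4.3.3 (17549 genes above background on at least 1 array, Benjamini-Hochberg adjustment). This step was run on simulated data with a large diet shift that was alike at both times. That run does not show what the fit can detect among smaller or opposite shifts. Alternatives were quantile normalization, scaling to the median of probes above background, normexp on median intensities (offset 50), a mean signal of at least 100, averaged probes and the deposited ratios.

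All 10 genes were named, with fixed genes (Ppara, Cpt1a, Acot2, Ucp1, Klb and others not reported here), up to 4 genes per list at 1.5-fold in a diet comparison, and the 3 profiles most like a gene that spanned 1.5-fold. Other named genes serve as relatives, receptors or tissue markers, and were chosen outside that rule. The genes and lists were chosen with earlier results of these data known.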

Additional observations from a re-analysis of the deposited data

Results flagged for a closer look

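Cyp4a14 differed in opposite directions between bezafibrate and control mice at the 2 times. Its bound was 1.40 on the log2 scale at ZT22, higher in bezafibrate mice, and -2.00 at ZT10, lower in bezafibrate mice. The ZT22 bound sets 31.4 units in bezafibrate mice, where the lowest signal above background was 10.7, against a control spot not well above background. The ZT10 bound sets a bezafibrate spot not well above background against 52.0 units in control mice, where that limit was 8.02, and the difference between the times was not tested.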

How the results depend on the processing

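None of the log2 ratios of the 10 genes that were called 1.5-fold changed sign under quantile normalization, scaling to the median, normexp correction, the filter at a mean signal of 100 or averaging of probes, and of 172 values of single genes under these settings, 167 moved by less than their scanner error. The other 5 were Cyp4a14 under normexp in each comparison and Cyp4a10 with its probes averaged at ZT10 (0.31). The Cyp4a10 average takes in probes that were not well above background on any array. The scanner error of a ratio, with a median of 0.20, is wide beside the spread of repeat spots of a probe (median SD 0.07 to 0.08 on an array). A move smaller than it is therefore a weak sign of stability. Many of the values also could not move. The filter at 100 only leaves genes out, and averaging does not alter a gene with a single probe. Scaling to the median shifts all genes of a comparison by the same amount. Uncalled ratios near 0 turned sign for Cyp4a10 at ZT10 (-0.05) and Vnn1 between times in control mice (-0.06) with normexp, besides Cyp4a10 between times. The median of the genes between times also turned with normexp, to 0.03 in bezafibrate mice and -0.06 in control mice, and in control mice with the filter at 100 (-0.06). The count of genes at 1.5-fold, bounds included, was 1 for diet at ZT22 and at ZT10 and 2 for time in bezafibrate and in control mice. With a mean signal of at least 100 it was 0, 0, 0 and 1, since Cyp4a14 and Vnn1 are then left out. With normexp it was 0 for diet at ZT22 and 0 for time in bezafibrate mice, where Cyp4a14 stood at 0.54 and 0.58. Vnn1 then stood at 0.35 for time in bezafibrate mice. In the deposited ratio table it was 0 at ZT10, where Cyp4a14 has no value. Limma called 0 of the fibrate response genes tested for diet or time under every setting run. No paired analysis was possible because each group holds 1 array. Leaving out an array leaves limma no residual degree of freedom and was not run. Genes not well above background on 1 or more arrays have bounds (Cyp4a14), folds from a dim spot (Vnn1) or no value (Fgf21) at this sensitivity. The number of arrays limits every comparison.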

Other observations

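Relatives of 2 of the genes differed between the times in both diets. Plin4, a lipid droplet protein, had 1103 units at ZT22 and 1733 at ZT10 in bezafibrate mice, and 841 at ZT22 and 1644 at ZT10 in control mice. Its log2 ratio of ZT22 over ZT10 was -0.65 ± 0.20 in bezafibrate mice and -0.97 ± 0.20 in control mice, opposite in sign to Plin2 in each diet. Angptl2 had 108 units at ZT22 and 170 at ZT10 in bezafibrate mice, and 90.2 at ZT22 and 163 at ZT10 in control mice, with log2 ratios of -0.66 and -0.86, opposite in sign to Angptl4. Their values were known when both were picked, Plin4 is also in the glucocorticoid-responsive list, and there is no test for a pair of arrays.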
